A study of Mus musculus with 10 samples.

Results

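The genes by which a cell shows antigen to T cells were examined in the transcriptome of muscle stem cells (MuSCs) isolated from injured mouse muscle. They were taken by a rule on symbols: every symbol beginning with H2-, apart from H2-Ke6 and H2-K2, together with B2m, Cd74, Ciita, Nlrc5, Tap1, Tap2, Tapbp, Tapbpl, Calr, Canx, Pdia3, Erap1, Cd80, Cd86, Icosl, Cd40 and Cd274. The rule was set with earlier results of these data known. This rule found 41 of the 24620 gene entries of the deposited table, 17 of them class I genes, 9 genes of class I peptide loading, 10 class II genes and 5 costimulatory genes.

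RNA-seq had been carried out on 5 control (Trpm7+/+; Pax7CreERT2/+; Rosa26YFP) and 5 Trpm7 cKO (Trpm7 flox/flox; Pax7CreERT2/+; Rosa26YFP) libraries of C57BL6 background, to ask what the loss of the TRPM7 channel changes in activated MuSCs. The mice of both genotypes carried the Cre allele and the YFP reporter, received tamoxifen and were injured with cardiotoxin (CTX), and 3000 YFP-positive cells per library were sorted on day 3 after injury. Since Cre was driven by Pax7, deletion and YFP labelling both depend on cells that had expressed Pax7. One identifying number of unstated meaning is common to the labels of Trpm7 cKO replicates 4 and 5, and no source used here says that every library came from a separate animal, so the p-values measure the spread between these libraries.

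MHC class I molecules pair a heavy chain with β2-microglobulin and show peptides of the cell's own proteins to CD8+ T cells; the peptides are pumped into the endoplasmic reticulum by TAP and fitted onto the heavy chain by a complex of chaperones. MHC class II molecules show peptides of engulfed material to CD4+ T cells and are known mainly from dendritic cells, macrophages and B cells, where the invariant chain CD74 guides them to the endosome. Costimulatory ligands such as CD80, CD86 and ICOSL give or withhold the further signal a T cell needs. Cultured myoblasts are known to take up class I and class II expression when they are given interferon-γ.

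Depth was 914361 to 1097709 counts per control library and 205986 to 581121 per Trpm7 cKO library, and the effect of depth cannot be told apart from that of genotype, and mitochondrial genes took 12.04% to 16.5% of the counts in control and 8.82% to 10.6% in Trpm7 cKO libraries. Trpm7 itself had 66 to 84 counts per control library and 10 to 55 per Trpm7 cKO library (log2 fold change -0.09, edgeR adjusted p = 0.723); reads at the 3′ end do not check a deletion elsewhere in the gene, and the deleted part is not named in the sources used here. Pax7, the transcription factor that defines MuSCs, was read 167 to 224 times per control library and 101 to 296 times per Trpm7 cKO library, as the labelled cell type requires. Levels below are normalized CPM, which are counts scaled to a common library total with TMM factors. Because libraries read the 3′ end with molecular identifiers, values are compared between libraries and not between genes. Adjusted p-values are those of edgeR's quasi-likelihood test over the 7753 genes that passed its filter on low counts, with Benjamini-Hochberg adjustment.

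Antigen presentation genes were higher in Trpm7 cKO libraries wherever edgeR called a difference. Of the 41 genes, 17 passed the filter, and 8 of these rose beyond a log2 fold change of 1.5 with an adjusted p below 0.05, where 8.49% of all tested genes did. They were H2-D1, H2-K1 and H2-T23 of class I, the peptide transporter subunit Tap1, the class II genes Cd74, H2-Ab1 and H2-Aa, and the costimulatory ligand Icosl. None of the 17 fell past both thresholds, where 3.53% of all tested genes did. By the adjusted p alone, 11 of the 17 were higher, against 24.6% of all tested genes, and 0 were lower, against 24.1%; at an unadjusted p below 0.05 only Calr was lower, and DESeq2 and limma-voom put it below the adjusted threshold. Normalized counts of the genotypes did not overlap for 9 of the 17, against 34.5% of all tested genes. The median log2 fold change of the 17 was 1.26, and that of all tested genes was -0.01. The 24 genes that failed the filter had at most 16 counts in any library, and they are described below by their counts. A gene low in control, such as H2-T23, Icosl, Cd74, H2-Ab1 or Tap1, could pass the filter only with the help of Trpm7 cKO libraries. Counts and medians over the 17 are therefore descriptions and do not stand for all 41. In bulk samples a changed number of cells of a type and a changed amount of RNA per cell cannot be told apart, whether a value is higher or lower. This holds for every value below.

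**Figure D1:**
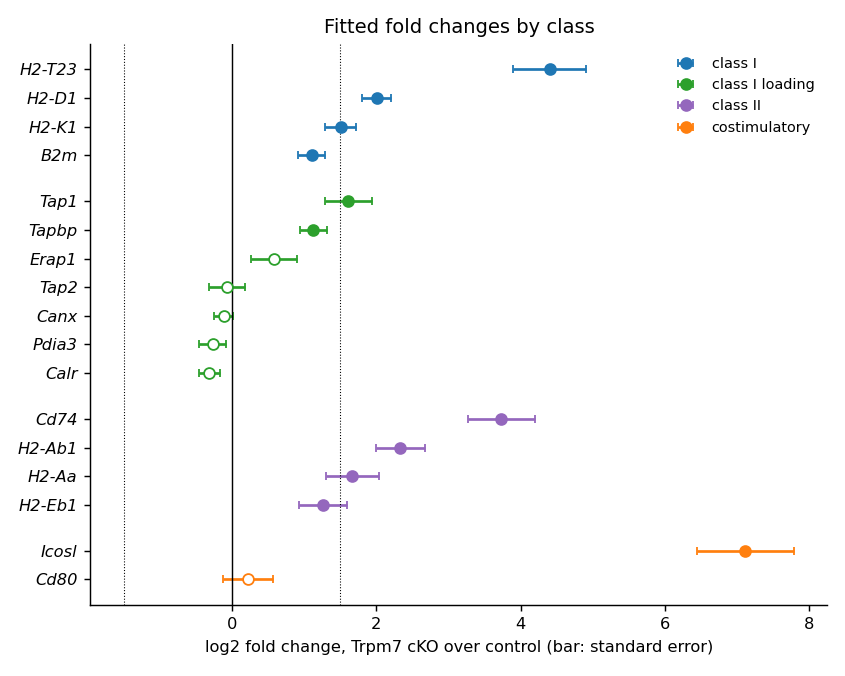
Fitted log2 fold change (x axis, Trpm7 cKO over control) of the 17 tested genes (y axis), coloured by class, with standard errors as bars; filled points had an adjusted p below 0.05 and dotted lines mark 1.5 on either side of 0. Filled points all lie to the right of 0, from H2-K1 at 1.51 and B2m at 1.105 to Icosl at 7.12, while the chaperones Calr, Canx and Pdia3 lie slightly to the left of 0.

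All 4 tested class I genes were higher by the adjusted p, where 24.6% of all tested genes were. Of these, 3 rose past both thresholds, where 8.49% of all tested genes did. H2-T23, one of the 3, was near 0 in control and could pass the filter only through Trpm7 cKO libraries. B2m, which encodes the light chain shared by all class I molecules, was measured at 450.5, 378, 651, 694 and 535 CPM in control replicates 1 to 5 and at 1310.1, 804, 957, 1316 and 1451 CPM in Trpm7 cKO replicates 1 to 5. Every Trpm7 cKO library was above every control library. The log2 fold change was 1.105 (standard error 0.19, edgeR adjusted p = 6.8e-05), which did not reach 1.5. H2-K1, a classical heavy chain, was at 203, 230.3, 197, 234 and 277 CPM in control and at 545, 363, 563, 775 and 1043 CPM in Trpm7 cKO libraries. The groups did not overlap, and its log2 fold change of 1.51 (standard error 0.22, edgeR adjusted p = 1.59e-05) lay just beyond 1.5. Without control replicate 1, without control replicate 3, without Trpm7 cKO replicate 4 or without Trpm7 cKO replicate 5 it lay between 1.30 and 1.46, still with an adjusted p below 0.05. It was also below 1.5 with DESeq2 (1.43), limma-voom (1.42), the replicate block (1.45), scaling on MuSC identity genes (1.32), genes of at least 1 count (1.28) and Trpm7 cKO replicates 4 and 5 summed (1.33).

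H2-D1, the other classical heavy chain of this strain, was at 85.5, 97.1, 125.5, 110.4 and 120.4 CPM in control libraries. In Trpm7 cKO libraries it was at 329, 293, 387, 510.3 and 684 CPM, with no overlap. This was a log2 fold change of 2.01 (standard error 0.20, edgeR adjusted p = 2.94e-07). H2-T23 encodes Qa-1, a heavy chain that presents leader peptides of other class I molecules to an inhibitory receptor of NK cells. It was close to absent in control libraries, with 1, 5, 0, 0 and 4 counts, and had 23, 15, 10, 37 and 16 counts in Trpm7 cKO libraries. The control mean was 2.16 ± 2.54 CPM and the Trpm7 cKO mean 51.2 ± 24.1 CPM (SD, n = 5 each), with a log2 fold change of 4.40 (standard error 0.50, edgeR adjusted p = 1.37e-06). H2-T23 had the highest fold change of the 4 tested class I genes, whose median was 1.76.

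The other 13 class I genes, all of the non-classical H2-Q, H2-T, H2-M and H2-Bl kind, were too low to test. H2-Q7, which encodes Qa-2, had 1, 1, 3, 0 and 3 counts in control and 8, 8, 3, 9 and 13 counts in Trpm7 cKO libraries. Per normalized depth this was a ratio of 11.4 (95% exact interval 5.28 to 28.2, counting error only). H2-T22, a ligand of some γδ T cells, had 0, 1, 0, 2 and 2 counts against 9, 4, 3, 13 and 6, a ratio of 15.6 (6.07 to 50.9). For H2-T22 each Trpm7 cKO library had more counts than every control library, although the control libraries were sequenced more deeply. H2-Q4 had 4 counts in all control and 17 in all Trpm7 cKO libraries, a ratio of 9.45 (3.08 to 38.6). Intervals held 1 for H2-M3 with 34 and 26 counts, H2-T24 with 13 and 12, H2-Q10 with 6 and 3, H2-Bl with 2 and 3 and H2-Q6 with 1 and 4 counts in control and Trpm7 cKO. H2-M9 had 3 and H2-M5 had 1 count in control and 0 in Trpm7 cKO libraries, H2-M2 had 2 and H2-T10 had 3 counts in Trpm7 cKO and 0 in control libraries, and H2-Q5 had none in any library. Summed over the 14 heavy chains other than H2-K1 and H2-D1, the control mean was 18.4 ± 6.44 CPM and the Trpm7 cKO mean 125.5 ± 66.9 CPM (SD, n = 5 each).

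Sequence shared between transcripts limits how firmly a read can be given to one gene. Of the 41 genes, 27 lie on chromosome 17 (GRCm38), among them 16 of the 17 class I genes, between positions 33915899 and 37483552, in the MHC region. In the GENCODE annotation of that build, 14 of the 17 class I genes shared sequence with other genes within the last 500 bases of their main transcript, counted in matches of 31 bases, while 5 of the other 24 genes did. H2-T22 shared 92.6% of this stretch, all of it with H2-T10, while H2-Q7 shared 45.6% and H2-K1 37.6%, all of it covered by other class I genes. H2-T23 shared 92.8% and H2-D1 54.4%, with 633 and 672 other genes, and matches to other antigen presentation genes covered 60.6% and 36.2%. B2m shared 0% and stands free of this limit, as do H2-Aa, H2-Ab1, H2-Eb1, Cd74 and Icosl. The strand setting of the counting is not stated, and reads of B2m cannot be told apart from those of Patl2, which overlaps its 3′ end on the opposite strand. The same holds for H2-T22, H2-T23 and H2-T24 with A930015D03Rik, H2-T10 with BC023719, Erap1 with Cast, Tapbpl with Vamp1 and Ciita with Dexi.

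Over all 17 class I genes the summed level was 756, 721, 986, 1057 and 961 CPM in control and 2288, 1535, 1977, 2749 and 3410.4 CPM in Trpm7 cKO libraries. Trpm7 cKO replicate 2 was the lowest and replicate 5 the highest of its genotype, and the genotypes did not overlap. The ratio of the means was 2.67. B2m counts per count of H2-K1 and H2-D1 were 1.15 to 2.02 in control and 0.84 to 1.499 in Trpm7 cKO libraries and overlapped, as did H2-D1 counts per H2-K1 count, 0.422 to 0.636 in control and 0.603 to 0.807 in Trpm7 cKO libraries.

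**Figure D2:**
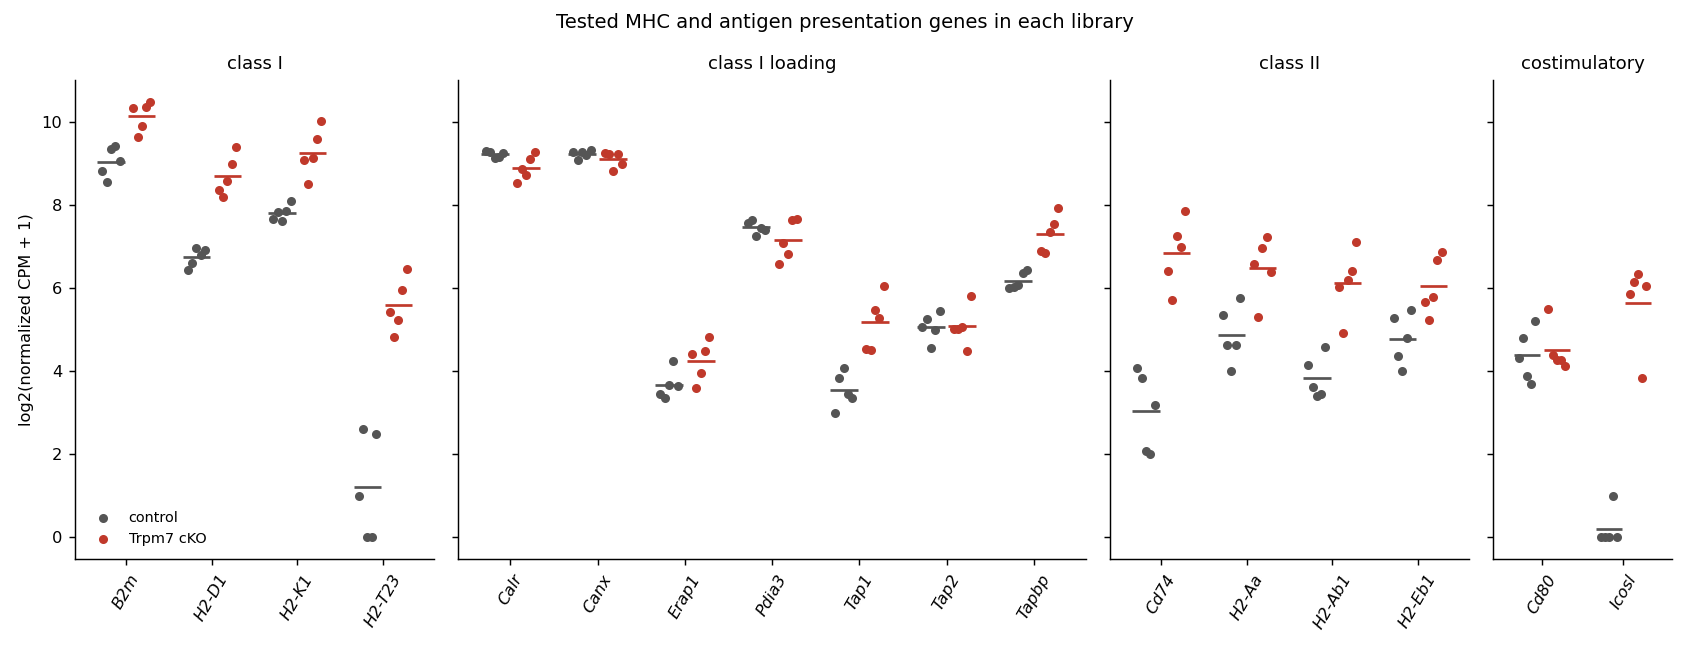
Level of each tested gene in each library on a log2(normalized CPM + 1) scale (y axis), with genes along the x axis in 4 panels by class, control in grey and Trpm7 cKO in red; horizontal lines are group means. H2-T23 and Icosl lie near 0 in control and well above it in all 5 Trpm7 cKO libraries, while the groups mingle for Tap2, Canx and Cd80.

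Promoters of 2 class I genes are shown since class I and class II promoters are known to share an upstream module, whose Y box binds NF-Y. The stretches are the 120 bases before the RefSeq start (GRCm38.p6), 5′ to 3′ on the gene's strand, at chr2:122147567-122147686 for B2m and chr17:35439035-35439154 for H2-Q7. Capitals mark the Y box CTGATTGG or, where only that is present, the inverted CCAAT core ATTGG, on either strand; the core lies within the Y box, so that each Y box is also a core.
B2m: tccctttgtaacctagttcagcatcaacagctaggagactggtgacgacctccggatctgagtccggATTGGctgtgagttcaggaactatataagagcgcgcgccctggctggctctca
H2-Q7: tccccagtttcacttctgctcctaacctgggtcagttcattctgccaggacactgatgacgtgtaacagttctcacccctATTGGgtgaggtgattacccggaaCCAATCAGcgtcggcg
B2m had 1 core, 53 bases before the start, and H2-Q7 had 1 at 40 bases and a Y box on the opposite strand at 16 bases. Over the 250 bases before the start, 11 of the 13 class I genes with a RefSeq window held the core and 5 held the letters of the Y box. In all 5, H2-Q7 among them, these letters lay on the opposite strand. Whether they are the Y box of the shared module was not tested. Of all 32851 windows of that length, 33.85% held the core and 3.83% the Y box. The core of interferon-stimulated elements, searched on both strands as GAAA followed by any 2 bases and GAAA again, occurred in 2.98% of all windows and in those of B2m, H2-T22 and H2-T23, in B2m at 139 bases before the start. A match of letters is a description of the sequence and not of binding.

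Genes of class I peptide loading did not move as a group. Tap1 rose and Tapbp was higher, while Tap2, the chaperones and the trimming peptidase Erap1 did not pass the test. Tap1, a subunit of the peptide transporter, was at 6.96, 13.4, 16.1, 10.04 and 9.26 CPM in control and at 22.2, 22.1, 43.8, 38.1 and 66.2 CPM in Trpm7 cKO libraries. The groups did not overlap, and the log2 fold change was 1.61 (standard error 0.32, edgeR adjusted p = 3.82e-04). It was 1.48 without control replicate 1 and 1.44 without Trpm7 cKO replicate 5, below 1.5 but with an adjusted p still below 0.05. The same held with scaling on MuSC identity genes and with genes of at least 1 count, at 1.41 in both. Tap2, the partner subunit, was at 32.8, 37.2, 22.5, 31.1 and 42.8 CPM in control and at 31.4, 31.3, 32.9, 21.5 and 55.2 CPM in Trpm7 cKO libraries. The genotypes overlapped, with Trpm7 cKO replicate 5 above and replicate 4 below the control range, and the log2 fold change was -0.07 (standard error 0.25, edgeR adjusted p = 0.836). Tap1 counts per Tap2 count were 0.212 to 0.714 in control and 0.706 to 1.77 in Trpm7 cKO libraries, which overlapped, and the difference between the subunits was not tested.

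Tapbp encodes tapasin, which bridges TAP and the heavy chain. It was at 63.6, 65.1, 66.5, 81.3 and 86.8 CPM in control and at 118, 114, 164, 186 and 243 CPM in Trpm7 cKO libraries, without overlap. Its log2 fold change was 1.13 (standard error 0.19, edgeR adjusted p = 7.11e-05). The endoplasmic reticulum chaperones Calr, Canx and Pdia3, which serve many glycoproteins besides class I, ranged from 526 to 640, from 528 to 629 and from 142 to 195 counts in control libraries. Their log2 fold changes were -0.31 for Calr, -0.11 for Canx and -0.27 for Pdia3, with edgeR adjusted p of 0.0801, 0.503 and 0.254. Together the 3 chaperones had a control mean of 1386 ± 52.1 CPM and a Trpm7 cKO mean of 1195 ± 158 CPM (SD, n = 5 each). Calr passed the adjusted p-value threshold in 7 alternative analyses, with DESeq2 at a log2 fold change of -0.40 (adjusted p = 0.00812).

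Erap1, which trims peptides to the length class I binds, had a control mean of 12.1 ± 3.48 CPM and a Trpm7 cKO mean of 19.0 ± 6.41 CPM (SD, n = 5 each; log2 fold change 0.58, standard error 0.32, edgeR adjusted p = 0.137). Nlrc5, the transactivator of class I genes, was too low to test, with 1, 0, 1, 1 and 0 counts in control and 2, 2, 0, 7 and 1 counts in Trpm7 cKO libraries, a ratio of 8.90 (95% exact interval 2.40 to 49.1). Tapbpl, a relative of tapasin, had 9 counts in control and 14 in Trpm7 cKO libraries, a ratio of 3.46 (1.39 to 9.06). Over the 9 loading genes the summed level was 1518 ± 53.5 CPM for control and 1465 ± 224 CPM for Trpm7 cKO (SD, n = 5 each), with overlapping libraries, and the median log2 fold change of the 7 tested was -0.07.

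The proteasome subunits that interferon-γ exchanges into the immunoproteasome supply much of the class I peptide. Of 5 such genes and proteasome activator genes, 4 were tested and 3 were higher by the adjusted p, where 24.6% of all tested genes were. Psmb8 was low in control and could pass the filter only through Trpm7 cKO libraries, so these counts are descriptions. Psmb8 rose (log2 fold change 2.24, edgeR adjusted p = 1.36e-05), from 4 to 13 counts in control libraries to 13 to 25 in Trpm7 cKO libraries. Psme2 was higher by 1.12 and Psmb10 by 0.82 on the log2 scale (edgeR adjusted p = 5.07e-04 and 0.0472). Psme1 had a log2 fold change of 0.50 (edgeR adjusted p = 0.0515), and Psmb9 was not tested.

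All 4 class II genes that could be tested were higher by the adjusted p, where 24.6% of all tested genes were. Of these, 3 rose past both thresholds, where 8.49% of all tested genes did, and Cd74 had the highest fold change. Cd74 and H2-Ab1 were low in control and could pass the filter only with the help of Trpm7 cKO libraries, so these counts are descriptions. Cd74, the invariant chain, had 16, 13, 3, 3 and 7 counts in the control libraries and 46, 28, 42, 77 and 42 counts in the Trpm7 cKO libraries. In normalized CPM it was at 15.9, 13.4, 3.22, 3.01 and 8.10 in control and at 85.0, 51.5, 153, 128 and 232 in Trpm7 cKO libraries. The lowest Trpm7 cKO library was above the highest control library, and the log2 fold change was 3.73 (standard error 0.46, edgeR adjusted p = 2.4e-05). H2-Ab1, the β chain of I-A, was at 16.9, 11.4, 9.65, 10.04 and 23.2 CPM in control libraries. In Trpm7 cKO libraries it was at 64.7, 29.4, 73.1, 84.5 and 138 CPM, again without overlap. Its log2 fold change was 2.33 (standard error 0.34, edgeR adjusted p = 1.77e-05).

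H2-Aa, the α chain of I-A, was at 39.8, 23.8, 15.0, 24.1 and 53.3 CPM in control and at 96.1, 38.6, 124, 151 and 82.8 CPM in Trpm7 cKO libraries. Trpm7 cKO replicate 2 fell within the control range, so the groups overlapped, and the log2 fold change was 1.67 (standard error 0.37, edgeR adjusted p = 0.00198). Without control replicate 3 it was 1.48 and without Trpm7 cKO replicate 4 it was 1.38, below 1.5 but still past the adjusted p-value threshold, and it was 1.47 both with scaling on MuSC identity genes and with genes of at least 1 count. H2-Eb1, the β chain of I-E, had reads in every library, although C57BL6 mice are known to lack surface I-E because their Ea gene is defective. It was at 37.8, 19.6, 15.0, 27.1 and 44.0 CPM in control and at 49.9, 36.8, 54.8, 103 and 116 CPM in Trpm7 cKO libraries. The groups overlapped by Trpm7 cKO replicate 2, and the log2 fold change was 1.26 (standard error 0.33, edgeR adjusted p = 0.00443). All 5 control libraries had reads of Cd74, H2-Aa, H2-Ab1 and H2-Eb1, from 3 counts of Cd74 to 46 of H2-Aa.

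The other 6 class II genes were too low to test. H2-DMa and H2-DMb1 encode the chains of the peptide editor H2-DM. H2-DMa had 2, 1, 2, 1 and 2 counts in control and 4, 5, 4, 8 and 2 counts in Trpm7 cKO libraries, a ratio of 6.39 (95% exact interval 2.76 to 16.5). H2-DMb1 had 2, 0, 1, 3 and 3 counts in control and 9, 3, 7, 16 and 0 counts in Trpm7 cKO libraries, a ratio of 8.65 (4.08 to 20.5). H2-DMb1 shared 41.8% of its transcript end with H2-DMb2, which had 2 and 4 counts in control and Trpm7 cKO libraries. Ciita, the master regulator of class II transcription, had 1 count in control and 4 in Trpm7 cKO libraries, a ratio of 8.90 (0.88 to 438), so that a difference was not detectable at this depth. H2-Ob, part of the brake on H2-DM best known from B cells, had 1 and 6 counts, a ratio of 13.3 (1.62 to 614), and H2-Eb2 had 1 and 0 counts.

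Summed over the 10 class II genes, the level was 115, 70.2, 46.1, 68.3 and 138 CPM in control and 329, 173, 457, 514 and 579 CPM in Trpm7 cKO libraries. The lowest Trpm7 cKO library, replicate 2, was above the highest control library, replicate 5. The ratio of the means was 4.69, against 2.67 for class I and 0.965 for the loading genes, and the differences between classes were not tested. The loading sum was mostly Calr, Canx and Pdia3, with means of 1386 of 1518 CPM in control and 1195 of 1465 CPM in Trpm7 cKO. It therefore says little about the other loading genes.

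**Figure D3:**
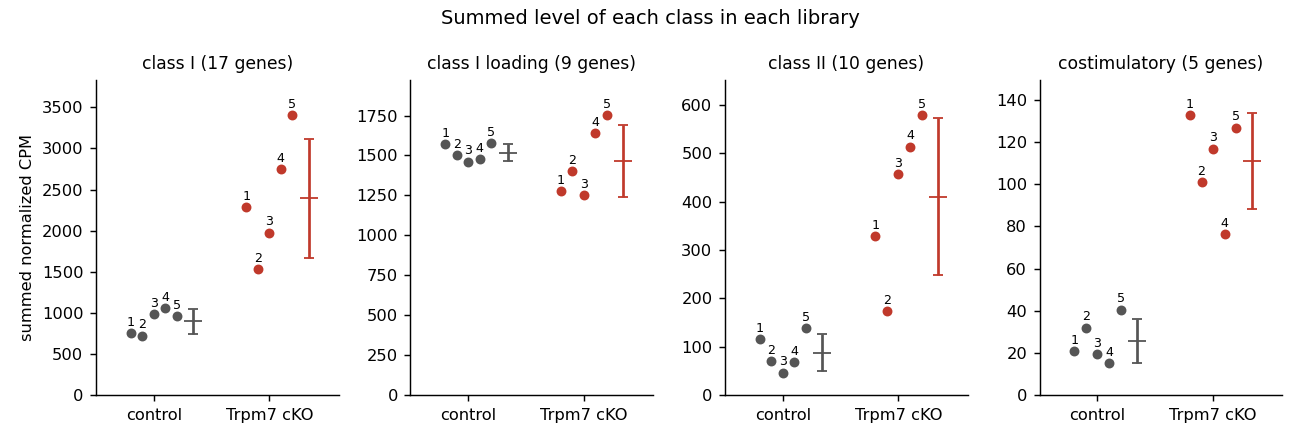
Summed normalized CPM (y axes, each from 0) of all genes of a class in each library, with replicate numbers beside the points and mean ± SD to the right of each group. Control and Trpm7 cKO libraries are separate for class I, class II and costimulatory genes, and overlap for the loading genes at 1518 ± 53.5 and 1465 ± 224 CPM.

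Relative to the class II chains, Cd74 had more counts in Trpm7 cKO than in control libraries. Cd74 counts per H2-Aa count were 0.400, 0.565, 0.214, 0.125 and 0.152 in control and 0.885, 1.33, 1.24, 0.846 and 2.80 in Trpm7 cKO libraries. These did not overlap, nor did Cd74 counts per H2-Ab1 count, 0.30 to 1.18 in control and 1.31 to 2.10 in Trpm7 cKO libraries. Cd74 counts per H2-Eb1 count were 0.111 to 0.684 in control and 1.24 to 2.80 in Trpm7 cKO libraries. H2-Ab1 counts per H2-Aa count overlapped, 0.417 to 0.643 in control and 0.560 to 1.67 in Trpm7 cKO libraries. These ratios need no scaling between libraries; they were looked at after the values were seen, rest on as few as 3 counts of Cd74 in a control library, and are given without a test.

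**Figure D4:**
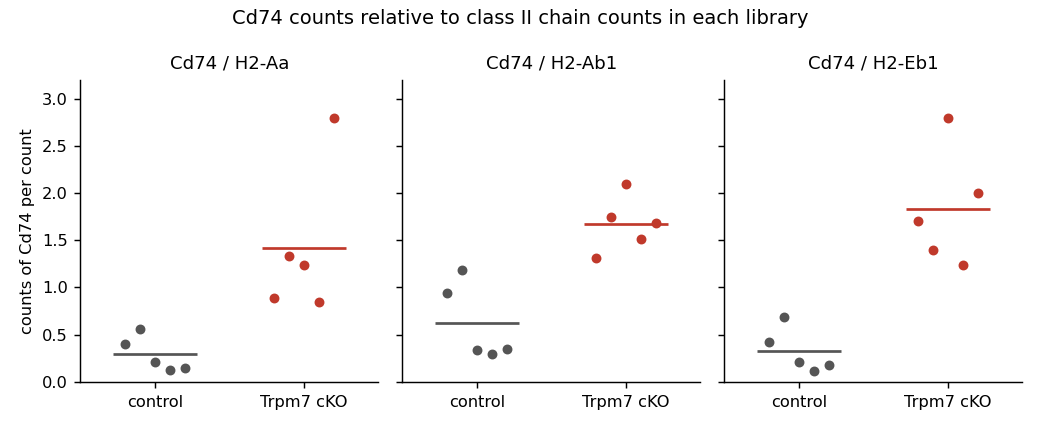
Counts of Cd74 per count of H2-Aa, H2-Ab1 and H2-Eb1 (y axis) in each control and Trpm7 cKO library, with the mean of each group as a line. All Trpm7 cKO libraries lie above all control libraries in the 3 panels, with the closest approach for H2-Ab1 at 1.18 and 1.31.

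Promoters of H2-Aa and H2-Eb1 are shown for class II, whose upstream module is known to pair the Y box with an X box. The stretches are the 120 bases before the RefSeq start (GRCm38.p6), 5′ to 3′ on the gene's strand, at chr17:34287824-34287943 (minus strand) and chr17:34305747-34305866 (plus strand). Capitals mark the Y box CTGATTGG, the inverted CCAAT core ATTGG within it or apart from it, and AGCAAC, the RFX half-site of the X box, each on either strand.
H2-Aa: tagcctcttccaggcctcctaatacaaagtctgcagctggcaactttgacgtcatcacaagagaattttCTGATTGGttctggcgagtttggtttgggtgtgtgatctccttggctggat
H2-Eb1: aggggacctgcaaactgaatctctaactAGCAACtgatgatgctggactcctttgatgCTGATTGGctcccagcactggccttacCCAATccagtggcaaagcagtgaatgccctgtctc
The Y box began 51 bases before the start of H2-Aa and 62 bases before that of H2-Eb1, and H2-Eb1 alone of them held AGCAAC, at 92 bases, and another core on the opposite strand at 35 bases. Among the 7 class II genes searched, all 7 held the core, H2-DMa in 1 of its 2 windows. The Y box was held by 3 (H2-Aa, H2-Eb1 and H2-Eb2), each on the gene's own strand, and AGCAAC by 3 (H2-Eb1, H2-Eb2 and H2-Ob). AGCAAC occurred in 12.2% of all windows of 250 bases and neither contains nor lies within the other motifs. Of the promoters of loading genes, 5 of 6 held the core and 2 held the letters of the Y box (Canx and Tap1), on the opposite strand. Of the 3 costimulatory promoters that of Icosl held the core.

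Genes of promoter factors and of interferon-γ signalling were examined beside these promoters. Of 14 genes of class II transcription and the interferon-γ pathway, 11 were tested, 8 were higher by the adjusted p (24.6% of all tested genes were), 4 of them past both thresholds (8.49%), and 0 were lower (24.1%); their median log2 fold change was 0.85. Irf8 rose by 2.34 on the log2 scale (edgeR adjusted p = 1.92e-08), with 13 to 21 counts in control and 18 to 54 in Trpm7 cKO libraries; it encodes a factor of myeloid and B cells. Irf1, the interferon-induced activator of class I and Ciita, rose by 1.91 (edgeR adjusted p = 1.02e-07) from 69 to 110 counts in control to 77 to 203 in Trpm7 cKO libraries. Ifngr1, the ligand-binding chain of the interferon-γ receptor, rose by 1.56 and Nfya, a subunit of NF-Y, by 1.53 (edgeR adjusted p = 1.04e-07 and 3.02e-04). Nfya was low in control and could pass the filter only with the help of Trpm7 cKO libraries, so the counts of this list are descriptions. Jak1, Jak2, Ifngr2 and Creb1 were higher by between 0.72 and 1.17. Nfyb, Nfyc and Irf2 did not pass the test, with log2 fold changes of 0.22, -0.14 and 0.45, and the RFX genes Rfx5, Rfxap and Rfxank were too low to test.

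The proteases that cut antigen and the invariant chain were all tested. Lgmn rose by 3.22, Ctsd by 2.70, Ctsb by 2.68 and Ctss, the protease that finishes invariant chain cleavage in many antigen-presenting cells, by 2.42 on the log2 scale (edgeR adjusted p between 6.45e-07 and 1.92e-04). Ifi30, a thiol reductase of the endosome, was higher by 1.20. Ctsl was lower, with a log2 fold change of -0.66 (edgeR adjusted p = 0.00354), from 726 to 846 counts in control to 118 to 417 in the shallower Trpm7 cKO libraries. These proteases are common to lysosomes of many cells.

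Tested markers of leukocytes, endothelial cells and fibroadipogenic progenitors were also higher in Trpm7 cKO libraries. Past both thresholds 8.49% of all tested genes rose, which is the share to set beside each list here. Markers near 0 in control, such as Ccr2 and Cd48, could pass the filter only through Trpm7 cKO libraries, so these counts are descriptions. Of 16 macrophage and monocyte markers, 12 were tested and 12 rose, with a median log2 fold change of 3.23. Their sum was 219 to 367 CPM in control and 1054 to 4341 CPM in Trpm7 cKO libraries. Of 8 pan-leukocyte markers, 6 were tested and 6 rose, from a sum of 63.2 to 102 CPM in control to 195 to 1164 CPM in Trpm7 cKO libraries, and none of these 24 markers was at 0 in all libraries of a genotype. The sum of 9 dendritic cell markers was 6.43 to 15.0 CPM in control and 33.1 to 87.7 CPM in Trpm7 cKO libraries, with Flt3, Clec9a, Cd209a and Siglech at 0 in every control library. B cell markers stayed at or near 0, with Cd79a at 0 in all control libraries and a sum of at most 1.16 CPM in control and 5.52 CPM in Trpm7 cKO libraries over the 3 of 5 in the table. The 6 of 8 T and NK cell markers in the table summed to at most 1.07 CPM in control and 12.9 CPM in Trpm7 cKO libraries, with Cd3e, Cd3d, Nkg7 and Klrb1c at 0 in control. Neutrophil markers, 6 of 7 in the table, summed to at most 3.10 CPM in control and to between 5.52 and 49.7 CPM in Trpm7 cKO libraries, with Camp at 0 everywhere and Cxcr2 and Mmp8 at 0 in control. Endothelial markers, 2 of 6 tested and both up, ranged in sum from 3.22 to 49.8 CPM in control and from 92.0 to 491 CPM in Trpm7 cKO libraries, and fibroadipogenic progenitor markers, 3 of 6 tested and all up, from 66.5 to 112 CPM and from 263 to 789 CPM, with Pi16 at 0 in control. MuSC identity genes, 12 of 15 tested, ranged in sum from 3244 to 3647 CPM in control and from 2716 to 3891 CPM in Trpm7 cKO libraries. By the adjusted p 6 were higher and 3 lower, against 24.6% and 24.1% of all tested genes. The sums thus cover moves in both directions, with log2 fold changes of 1.19 for Pax7 and 3.07 for Chrdl2 but -2.01 for Myod1 and -1.49 for Met. The part of these other cell types in the class I, class II and costimulatory results was not tested.

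Set against the 24 macrophage, monocyte and pan-leukocyte markers, class II and class I counts were both lower on average in Trpm7 cKO libraries. The means per 100 marker counts were 23.5 in control and 11.9 in Trpm7 cKO for class II, and 247 and 75.2 for class I. Marker counts were themselves higher in Trpm7 cKO libraries, so the direction of these ratios is partly set by the division. Class II counts per 100 marker counts were 35.0, 16.5, 11.7, 24.2 and 30.2 in control and 10.6, 13.8, 14.6, 9.60 and 10.99 in Trpm7 cKO libraries. The genotypes overlapped, and no Trpm7 cKO library had more class II counts per marker count than control replicates 1, 2, 4 and 5. Class I counts per 100 marker counts were 169 to 375 in control and 51.4 to 123 in Trpm7 cKO libraries and did not overlap, being lower in Trpm7 cKO. In Trpm7 cKO libraries, the order of the class II sum was replicate 2, 1, 3, 4 and 5, and that of the marker sum was replicate 2, 1, 3, 5 and 4, at 1249.5, 3091, 3131, 5270.1 and 5350.1 CPM. The values of the markers come from the same libraries as those of the class II genes, and 5 libraries are too few for a correlation.

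**Figure D5:**
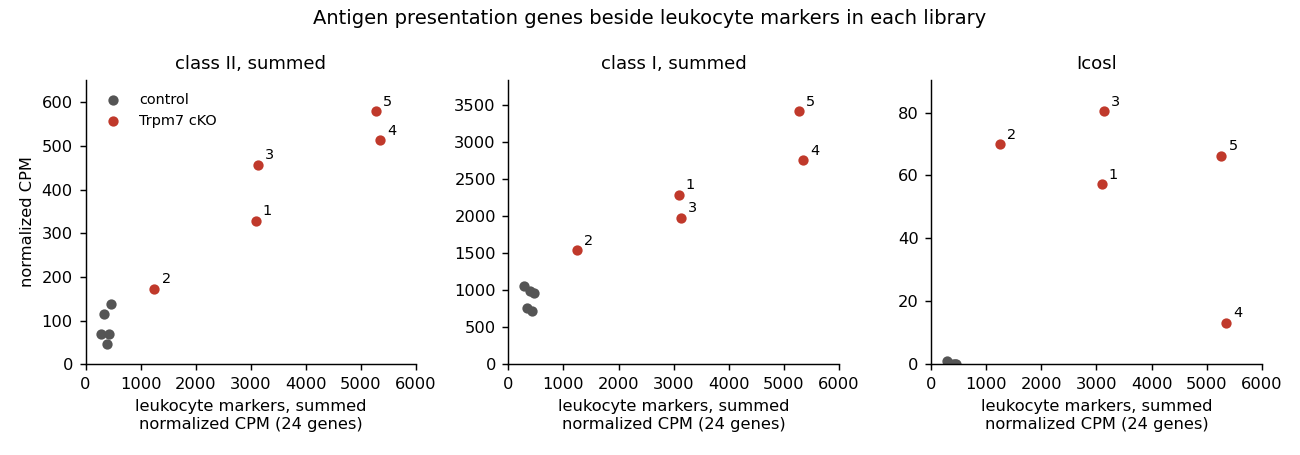
Summed class II level, summed class I level and Icosl level (y axes, normalized CPM) against the summed level of 24 leukocyte markers (x axis, normalized CPM) in each library, with Trpm7 cKO replicates numbered. Class II and class I lie highest in Trpm7 cKO replicates 4 and 5, which have the most marker signal, while Icosl is lowest in replicate 4, at 13.3 CPM, and at 69.9 CPM in replicate 2, which has the least.

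Icosl, the ligand of the T cell receptor ICOS, was the 1 costimulatory gene of the 2 tested that passed both thresholds, where 8.49% of all tested genes rose. It could pass the filter only through Trpm7 cKO libraries. It had 0, 0, 0, 1 and 0 counts in the control libraries and 31, 38, 22, 8 and 12 counts in the Trpm7 cKO libraries. In normalized CPM the Trpm7 cKO libraries were at 57.3, 69.9, 80.4, 13.3 and 66.2, with replicate 4 well below the others. The ratio per normalized depth was 247 (95% exact interval 43.4 to 9838, counting error only), with a single control read behind it. The log2 fold change was 7.12 (standard error 0.67, edgeR adjusted p = 1.99e-07), a value that depends on the prior count used for a gene near 0. Icosl ordered the libraries differently from the leukocyte markers. Per 100 marker counts it was at 1.85, 5.60, 2.57, 0.248 and 1.26 in Trpm7 cKO replicates 1 to 5. Division by the marker counts lowers this value where markers are high, so its order is partly set by the division. Replicates 4 and 5, whose labels share an identifying number, had marker sums of 5350.1 and 5270.1 CPM and Icosl at 13.3 and 66.2 CPM. These Icosl values rest on 8 and 12 counts, and the cell type that the Icosl reads came from was not tested. Icosl shared 0% of its transcript end with other genes, and it lies on chromosome 10 at 78069302 to 78083913 (GRCm38).

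Cd80, a ligand of CD28 and CTLA-4, was at 18.9, 26.8, 13.9, 12.05 and 35.9 CPM in control and at 44.3, 20.2, 18.3, 18.2 and 16.6 CPM in Trpm7 cKO libraries. The groups overlapped and the difference did not pass the test, with a log2 fold change of 0.22 (standard error 0.35, edgeR adjusted p = 0.624) that became -0.21 without Trpm7 cKO replicate 1. Cd86, its fellow ligand, was too low to test but had 1, 1, 0, 1 and 1 counts in control and 9, 2, 2, 13 and 4 counts in Trpm7 cKO libraries. Each Trpm7 cKO library was above every control library, at a ratio of 16.7 (95% exact interval 5.88 to 65.2). Cd40, the receptor by which helper T cells license antigen-presenting cells, had 0, 0, 3, 0 and 1 counts against 0, 0, 3, 6 and 3, a ratio of 6.67 (2.02 to 28.4). Cd274, which encodes PD-L1, had 1, 4, 2, 1 and 2 counts against 8, 4, 0, 8 and 1, a ratio of 4.67 (2.11 to 11.1). Over the 5 costimulatory genes the summed level was 25.6 ± 10.4 CPM for control and 111 ± 22.8 CPM for Trpm7 cKO (SD, n = 5 each). Cd80 made up most of the control sum and Icosl was its largest part in 4 of the 5 Trpm7 cKO libraries.

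Of 11 other costimulatory and checkpoint ligands, 10 were in the table and 4 were tested, and they went in both directions. Cd48, which is also one of the pan-leukocyte markers, rose by 3.71, Lgals9 by 2.24 and Vsir by 1.69 on the log2 scale (edgeR adjusted p = 3.8e-06, 1.2e-06 and 5.86e-04). Pvr, which encodes a nectin-like ligand, was lower, with a log2 fold change of -1.27 (edgeR adjusted p = 4.25e-06). Its mean was 313 CPM in control and 128 CPM in Trpm7 cKO libraries, from 257 to 364 counts and, in the shallower Trpm7 cKO libraries, 13 to 79 counts. Cd276, which encodes B7-H3, was too low to test, with 10 to 19 counts in control and 1 to 3 in Trpm7 cKO libraries (means 14.1 and 5.44 CPM). Tnfsf9, also too low to test, had 0 to 5 counts in control and 5 to 11 in Trpm7 cKO libraries (means 2.39 and 18.2 CPM). Of 5 receptors that T cells use for these ligands, Cd28 and Ctla4 were in the table, with 5 and 0 counts in all control and 6 and 1 counts in all Trpm7 cKO libraries.

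Across the 24 genes that could not be tested, the interval of the ratio was above 1 for 11, held 1 for 12 and was below 1 for 0, and H2-Q5 had no count. Of all 14169 genes below the filter with a count, the interval was above 1 for 16.4% and below 1 for 2.49%. The number of genes past both thresholds depended on how the data were scaled and filtered, being 5 of 17 when libraries were scaled on MuSC identity genes, which moved the median of all genes to -0.23, 3 of 8 when libraries were thinned to the smallest, 14 of 40 when genes with at least 1 count were kept and 15 of 30 with DESeq2. In each of these analyses 0 antigen presentation genes fell past both thresholds.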

How the data were processed

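MuSC libraries were prepared by CEL-Seq2. To make the table, the authors read barcodes and molecular identifiers with UMI-tools 1.1.4, trimmed reads with Trim Galore 0.6.10, mapped them to GRCm38 with HISAT2 2.2.1, assigned them with featureCounts 2.0.6 and removed duplicates, and the deposited values are whole-number counts per gene without normalization. The annotation release and strand setting are not given in the sources used here.

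Groups and replicate numbers were taken from the sample labels. The analysis used edgeR 4.0.16 (R 4.3.3), with filterByExpr at a minimum count of 10 and a minimum total of 15, TMM factors and a robust quasi-likelihood F test with genotype as the only term, over all genes. Thresholds were 1.5 for the size of the log2 fold change and 0.05 for the adjusted p-value. Genes below the filter are given as pooled ratios per normalized depth with exact 95% intervals, which cover counting error only. Tests were checked on simulated counts. All 10 libraries entered as replicates, as labelled. Counts of any 2 libraries within a genotype differed beyond sampling noise, which does not show that they came from separate animals.

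All genes matching the symbol rule are named, those below the filter with their counts. The genes, the pathway lists and the cell type marker lists were chosen with earlier results of these data known. A further gene of the class II transcription and interferon-γ list is not reported here, and the counts of that list leave it out. The alternatives were DESeq2 1.42.0, limma-voom (limma 3.58.1), RLE factors, total counts alone, scaling on MuSC identity genes, other filters, thinning to 205986 counts in each library, a replicate block, each library left out in turn and the adjusted p-value alone. Summing Trpm7 cKO replicates 4 and 5 was added after the data were seen. Positions and transcript ends came from GENCODE, and promoters from RefSeq (GRCm38.p6), in which 29 of the 41 genes had a window.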

Additional observations from a re-analysis of the deposited data

Results flagged for a closer look

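Among the 50 groups of 5 libraries examined, 25 quantities in each genotype, 3 held a library whose gap to its nearest neighbour took more than 0.71 of the range, where chance gives about 1 in 20. Erap1 was at 18.1 CPM in control replicate 4, while the other control libraries were at 11.8 CPM or below. Cd80 was at 44.3 CPM in Trpm7 cKO replicate 1, while the other Trpm7 cKO libraries were at 20.2 CPM or below. Icosl was at 1.00 CPM in control replicate 4, from a single count, and at 0 in the other control libraries.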

How the results depend on the processing

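The 11 genes called higher by the adjusted p alone kept that call under every alternative in which they were tested, with a largest adjusted p of 0.0321, for H2-Eb1, while counts past the fold change threshold moved. The count of 8 genes past both thresholds became 5 with scaling on MuSC identity genes, 14 with genes of at least 1 count, 3 after thinning and 15 with DESeq2, and were 6 to 9 with 1 library left out. For class I the 3 genes became 5 with genes of at least 1 count and 5 with DESeq2 (2 to 4 with 1 library left out). For class I loading the 1 gene became 0 with scaling on MuSC identity genes, with a minimum count of 20 and after thinning, and 2 with DESeq2 or with the adjusted p alone (0 to 1 with 1 library left out). For class II the 3 genes became 1 after thinning and 5 with DESeq2 (2 to 3 with 1 library left out). For costimulation the 1 gene became 4 with genes of at least 1 count, 3 with DESeq2 and 0 with a minimum count of 20 or after thinning, where no costimulatory gene was tested. Genes that fell past both thresholds numbered 0 under every alternative. With the replicate number as a block, 7 genes were past both thresholds and 0 fell; correlations of same-numbered libraries lay between -0.12 and 0.18, 1 of the 5 numbers matched best with its own, and the numbers were not taken to pair the libraries. Log2 fold changes that turned sign were Canx after thinning, at 0.0232, Cd80 with scaling on MuSC identity genes, at -0.0413, and with 1 library left out, where it lay between -0.21 and 0.49, and Tap2 with 1 library left out, where it lay between -0.21 and 0.0611, all far from the threshold. Calr and Pdia3 passed the adjusted p threshold downward in 7 and 2 alternatives. Apart from the number of genes tested in thinning and filtering, the cause of these shifts was not tested. Depth limits the 24 genes below the filter, of which Ciita had 5 counts in all.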
